A study of Mus musculus with 21 samples.

Results

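Mesp1, Mesp2, Ripply2 and Cer1 are mouse genes switched on where the presomitic mesoderm, the unsegmented strip on each side of the neural tube, is about to be divided into somites. They were followed over 7 consecutive pieces of that tissue. Each gene was represented by the probe set that carried its symbol alone and had the highest mean log2 signal, which gave 4 genes of the 18193 represented on the array, all 4 of them among the 12141 genes tested. The arrays were Affymetrix mouse arrays hybridised with amplified total RNA, and signals are MAS5 intensities on a linear scale. The embryos were of the outbred CD-1 background, with no genetic change or treatment given in the labels, staged E8.5 in the labels and 9.0 days post-coitus in the dissection protocol. The presomitic mesoderm was freed of surrounding tissue after a short pancreatin digestion and divided into parts 1 to 7, with 3 arrays a part, 21 in all. The labels do not say which part number lies at which end of the tissue. The left and right sides of 1 embryo were both used, so some arrays share an embryo, and p-values speak for the spread over arrays, not over embryos.

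Mesp1 and Mesp2 encode closely related basic helix-loop-helix transcription factors. In the presomitic mesoderm, Notch signalling together with the T-box factor Tbx6 turns Mesp2 on in the segment that will form next, and Mesp2 sets the place of the boundary and the polarity of the somite. Ripply2, a target of Mesp2, encodes a nuclear protein that binds T-box factors and recruits Groucho corepressors, and it limits Tbx6. Cer1 encodes Cerberus-like, a secreted protein of the DAN family that binds Nodal and BMP ligands, and it is a known marker of the anterior presomitic mesoderm and newest somite. The expression of Mesp2 in this tissue is transient and comes back with each segment, so single embryos are known to differ in its level.

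The promoters are shown because T-box and helix-loop-helix factors are known inputs of members of this group, Tbx6 for Mesp2 and Mesp2 for Ripply2. All 4 were found in the RefSeq promoter table of assembly GRCm38.p6, and the 250 bases before each start site are printed 5′ to 3′ on the gene's own strand. Capitals mark matches to TCACAC, a short form of the T-box site, and to the E-box CANNTG, the site of helix-loop-helix factors, searched on both strands. The windows are chr7:79793591-79793840 (minus strand) for Mesp1, chr7:79810477-79810726 (plus strand) for Mesp2, chr9:87015287-87015536 (plus strand) for Ripply2 and chr4:82885152-82885401 (minus strand) for Cer1.
Mesp1: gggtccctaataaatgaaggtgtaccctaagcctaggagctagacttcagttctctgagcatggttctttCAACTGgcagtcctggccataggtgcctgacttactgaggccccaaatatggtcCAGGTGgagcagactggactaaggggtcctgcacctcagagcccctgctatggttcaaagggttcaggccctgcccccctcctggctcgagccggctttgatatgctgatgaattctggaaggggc
Mesp2: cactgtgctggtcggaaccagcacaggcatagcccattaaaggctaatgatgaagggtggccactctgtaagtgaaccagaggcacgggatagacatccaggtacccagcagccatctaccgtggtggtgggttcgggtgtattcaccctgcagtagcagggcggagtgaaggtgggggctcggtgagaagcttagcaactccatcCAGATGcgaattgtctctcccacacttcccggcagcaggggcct
Ripply2: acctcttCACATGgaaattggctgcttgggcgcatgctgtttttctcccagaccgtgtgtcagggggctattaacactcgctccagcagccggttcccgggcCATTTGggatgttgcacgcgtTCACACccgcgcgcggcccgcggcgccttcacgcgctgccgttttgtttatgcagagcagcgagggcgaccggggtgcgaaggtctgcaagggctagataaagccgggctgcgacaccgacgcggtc
Cer1: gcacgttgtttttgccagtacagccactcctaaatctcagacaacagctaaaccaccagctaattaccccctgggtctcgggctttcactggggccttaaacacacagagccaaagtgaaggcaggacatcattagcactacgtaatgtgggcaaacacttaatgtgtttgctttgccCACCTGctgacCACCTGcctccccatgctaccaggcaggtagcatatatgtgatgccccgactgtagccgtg
Ripply2 had a TCACAC upstream of its start, at position -127. Mesp1 had none before its start, but one at position 6 after it, in chr7:79793573-79793592 (minus strand), which is shown with the same capitals.
Mesp1 after the start: gcccgctTCACACctagggc
No TCACAC lay in the windows of Mesp2 and Cer1, even with the 50 bases after the start included. Among 32851 RefSeq promoters, TCACAC was in 12.3% of the 250-base windows and in 14.5% of the windows of 300 bases. Each of the 4 genes had an E-box before the start, at positions -180 and -126 in Mesp1, -44 in Mesp2, -243 and -148 in Ripply2, and -72 and -61 in Cer1. E-boxes were in 66.2% of all 250-base windows, so their presence is common. TGGGAA, the core of the site of the Notch effector Rbpj, was in none of the 4 windows and in 21.6% of all. These matches are letters in a window and do not show binding. Sites outside the window or with other spellings were not searched, so a missing match does not show that a gene lacks the site. Mesp1 and Mesp2 are adjacent protein-coding genes on chromosome 7 on opposite strands, whereas Ripply2 and Cer1 lie on chromosomes 9 and 4.

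Mean signal per array was 151 to 154 and the median 12.9 to 13.7, and no pair of arrays held identical values. Markers of the labelled tissue were present, with Tcf15 at up to 2518, Dll1 at up to 2276 and Msgn1 at up to 75.1. All 12 genes of a presomitic mesoderm and somite list were above the median of the table in some array. So were all genes of the gut endoderm (11), neural tube (10) and endothelium (13) lists, so this does not set the tissue apart. Blood markers were present too, with Hbb-y at 4777 or more in every array. The sum over 10 blood markers was 10941 to 20318 in parts 1 to 3 and 6599 to 12687 in parts 4 to 7. Of 9 tested, 0 had a rising and 7 a falling slope with part number, beside 8.12% and 11.1% of all genes. The part of blood in the results was not tested. Arrays of a part were not always most like each other. Over the other 12137 tested genes, each array's deviations from the mean of all arrays were correlated with the mean deviations of each part, its own array left out. The own part's mean thus came from 2 arrays and that of each other part from 3, which can lower the correlation with the own part. Of the 21 arrays, 8 were closest to their own part and the other 13 to a neighbouring part. In 5 arrays at least 2 other parts were closer than the own part. These were replicate 2 of part 7 (r = 0.433 across genes with part 7, 0.728 with part 6), replicate 3 of part 4 (0.0282, against 0.228 with part 5), replicate 3 of part 3 (0.0909, against 0.350 with part 2), replicate 3 of part 2 (0.112, against 0.499 with part 3) and replicate 3 of part 6 (0.456, against 0.541 with part 7). Genes are not independent replicates, and these values only describe the arrays. Replicate 3 of part 4 and replicate 2 of part 7 held the outlying values of Mesp1, Mesp2 or Ripply2. The tests, the order of parts, the spread and the correlations are also given without each of these arrays. That choice was made after the values were seen, so adjusted p-values without them describe a chosen set of arrays.

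Mesp1 and Mesp2 were low in parts 1 and 2, reached their highest means in parts 4 and 5, and were lower again in parts 6 and 7. The signals of Mesp1 (Entrez 17292, probe set 1426557_at) were 18.4, 16.2 and 8.42 in part 1, 17.3, 12.4 and 15.8 in part 2, and 26.9, 25.3 and 58.8 in part 3, in the order of replicates 1, 2 and 3, which is kept throughout. In part 4 they were 48.5, 86.3 and 484, and in part 5 they were 109, 50.1 and 135. In part 6 they were 80.2, 60.5 and 26.8, and in part 7 they were 29.2, 56.2 and 20.5. Every array of parts 3 to 7 was above every array of parts 1 and 2, but from part 3 on the ranges ran into each other. A single array, replicate 3 of part 4, held the highest value by a wide margin.

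Mesp2 (Entrez 17293, probe set 1419629_at) had signals of 6.41, 6.39 and 11.5 in part 1, 4.60, 12.3 and 11.7 in part 2, and 16.7, 9.38 and 49.9 in part 3. In part 4 the values were 85.9, 191 and 1439, and in part 5 they were 138, 172 and 756. In part 6 they were 88.0, 70.4 and 39.1, and in part 7 they were 9.88, 54.1 and 9.92. All 3 arrays of part 4 and all 3 of part 5 were above all arrays of part 3, and 2 of the 3 arrays of part 7 were back at the level of parts 1 and 2. Within part 4 the highest array was 16.8-fold above the lowest, and it was the array that was also highest for Mesp1.

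On the scale of log2(signal + 16), on which a signal of 0 is 4 and changes of low genes are understated, the mean level of Mesp1 was 4.91 ± 0.26 (SD, n = 3) in part 1, 4.96 ± 0.12 in part 2 and 7.22 ± 1.55 in part 4. Its means were 5.67 ± 0.48 in part 3, 6.75 ± 0.62 in part 5, 6.09 ± 0.60 in part 6 and 5.62 ± 0.50 in part 7. The order of the Mesp1 levels was thus part 4, 5, 6, 3, 7, 2 and 1, and of neighbours in that order only parts 7 and 2 did not overlap. For Mesp2 the mean levels were 4.58 ± 0.17, 4.66 ± 0.26 and 5.25 ± 0.71 in parts 1 to 3, 8.29 ± 1.99 in part 4, 8.14 ± 1.27 in part 5, 6.31 ± 0.47 in part 6 and 5.17 ± 0.83 in part 7. Mesp2 had the same order of parts as Mesp1, and there only parts 5 and 6 did not overlap. The place of part 4 at the head of both orders rests on its replicate 3. Without that array part 5 came first, with means of 6.75 for Mesp1 and 8.14 for Mesp2 against 6.34 and 7.18 in part 4.

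Both genes differed between parts by limma's moderated F test, with an adjusted p of 0.0189 for Mesp1 and 0.00114 for Mesp2 (Benjamini-Hochberg over 12141 genes), where 13.4% of all genes tested were called at an adjusted p under 0.05. A gene that passes the filter on low signals only where it is high is bound to vary between parts, which touches Mesp2, Ripply2 and Cer1, at or above the limit of 13.3 in 12, 13 and 11 of 21 arrays. Neither gene had a called slope with part number, 0.20 ± 0.10 (SE) log2 units per part for Mesp1 (adjusted p = 0.165) and 0.28 ± 0.16 (SE) for Mesp2 (adjusted p = 0.247), against 19.2% of all genes. Without replicate 3 of part 4 the slope of Mesp1 was 0.20 ± 0.06 (SE) and was called (adjusted p = 0.0376, range over all alternatives 0.0159 to 0.479). Without that array the F calls had an adjusted p of 0.00481 for Mesp1 and 2.48e-04 for Mesp2. The F call of Mesp1 was lost without all arrays of replicate 1 (adjusted p = 0.134) or replicate 2 (0.190), and that of Mesp2 without replicate 2 (0.0659).

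The step from part 3 to part 4 was the steepest for Mesp2. Its level was 3.04 ± 0.71 (SE) log2 units higher in part 4, or 8.24-fold, but this did not pass the test over all genes (adjusted p = 0.175), where 6 genes, 0.0494% of those tested, were called. Without replicate 3 of part 4 that difference of Mesp2 was 1.93 ± 0.57 (SE), or 3.82-fold (adjusted p = 0.567), and no gene was called. From part 3 to part 4 the level of Mesp1 differed by 1.55 ± 0.52 (SE), or 2.92-fold (adjusted p = 0.737), and by 0.67 ± 0.38 (SE) without that array. From part 5 to part 6 the level of Mesp2 differed by -1.83 ± 0.71 (SE) (adjusted p = 0.524), a step at which 0.486% of genes were called. The first steps were small, and no difference of the 4 genes was called from part 1 to 2 or from part 2 to 3, where 0.799% and 0.00824% of genes were called. No step of Mesp1 or Mesp2 passed the test in the main fit, with equal weights for all arrays and no covariate. With the replicate number as a block the part 4 against part 3 difference of Mesp2, 3.04, passed it (adjusted p = 0.0340). With array weights the part 4 against part 3 difference of Mesp2, 2.70, did (adjusted p = 0.0496, range over all alternatives 0.0340 to 1.00).

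**Figure D1:**
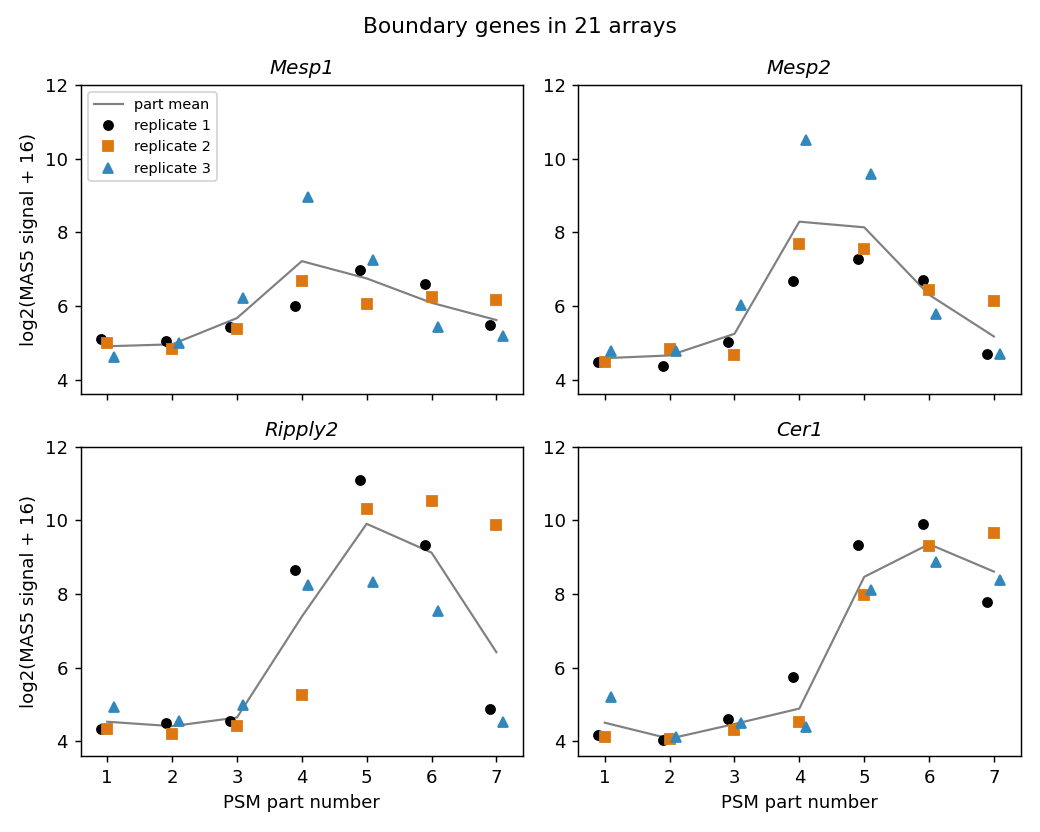
Level of Mesp1, Mesp2, Ripply2 and Cer1 as log2(MAS5 signal + 16), against the part number of the presomitic mesoderm (PSM). Each point is 1 array, marked by replicate number, and the line joins the means of the 3 arrays of a part; replicate 3 of part 4 stands above the others for Mesp1 (signal 484) and Mesp2 (1439), and replicate 2 of part 7 for Ripply2 (918).

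Ripply2 was at a few signal units in parts 1 to 3 and reached 2166 and 1452 in single arrays of parts 5 and 6. For Ripply2 (Entrez 382089, probe set 1447726_at) the signals were 4.28, 4.20 and 14.5 in part 1, 6.59, 2.44 and 7.34 in part 2, and 7.35, 5.34 and 15.8 in part 3. In part 4 they were 385, 22.6 and 287, in part 5 they were 2166, 1255 and 304, and in part 6 they were 624, 1452 and 170. In part 7 the signals were 13.5, 918 and 7.01. The 9 arrays of parts 4 to 6 were all above the 9 arrays of parts 1 to 3. Part 7 was split, with replicates 1 and 3 back at the level of the first parts and replicate 2 at a level seen in parts 5 and 6. Over the other genes, replicates 2 and 3 of part 7 were both closest to part 6. Their r was 0.728 and 0.491 with part 6, against 0.433 and 0.472 with part 7.

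The mean levels of Ripply2 on the log2(signal + 16) scale were 4.54 ± 0.34, 4.42 ± 0.18 and 4.65 ± 0.30 (SD, n = 3) in parts 1 to 3. They were 7.39 ± 1.85 in part 4, 9.91 ± 1.43 in part 5, 9.13 ± 1.50 in part 6 and 6.42 ± 2.99 in part 7. The order was part 5, 6, 4, 7, 3, 1 and 2, and the ranges of all neighbours in that order overlapped. Without replicate 2 of part 7 the mean of part 7 was 4.70 ± 0.25 (SD, n = 2) and the order was the same. Within part 7 the highest array was 131-fold above the lowest. Ripply2 differed between parts by the F test (adjusted p = 0.00230), a call lost without the arrays of replicate 1 (adjusted p = 0.243). Its F test had an adjusted p of 4.17e-05 without replicate 2 of part 7. Its slope of 0.73 ± 0.20 (SE) log2 units per part was called upwards (adjusted p = 0.0126), as were 8.12% of all genes, and was 0.46 without the arrays of replicate 2 (adjusted p = 0.258, range over all alternatives 0.00120 to 0.258).

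The steps of Ripply2 between neighbouring parts were large but had wide errors, and none passed the test with all arrays. The difference was 2.74 ± 1.09 (SE) log2 units from part 3 to 4 (adjusted p = 0.867) and 2.52 ± 1.09 (SE) from part 4 to 5 (adjusted p = 0.808), where 0.321% of genes were called. From part 6 to part 7 it was -2.70 ± 1.09 (SE) (adjusted p = 0.948). At that step limma called no gene, and 581 genes, 4.79% of those tested, had an unadjusted p under 0.05. Without replicate 2 of part 7 the same difference was -4.42 ± 0.87 (SE), with Ripply2 21.5-fold lower in part 7 (adjusted p = 0.0293, range over all alternatives 0.0293 to 1.00). Then 62 genes were called, 0.511% of those tested. Replicate 2 of part 7 was left out after its outlying Ripply2 value was seen. This adjusted p therefore describes a chosen set of arrays and is not a test of the step. Between the ends, part 7 was 1.89 ± 1.09 (SE) log2 units above part 1 for Ripply2 (adjusted p = 0.285), and 0.17 ± 0.87 (SE) without that array.

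Cer1 was low in parts 1 to 4 and high in parts 5 to 7, and it had the strongest test results of the 4 genes. The signals of Cer1 (Entrez 12622, probe set 1450256_at) were 2.22, 1.54 and 21 in part 1, 0.373, 0.862 and 1.38 in part 2, and 8.65, 3.75 and 6.55 in part 3. In part 4 they were 38.0, 7.21 and 4.97. In part 5 they were 625, 236 and 259, in part 6 they were 935, 618 and 451, and in part 7 they were 206, 791 and 318. All 9 arrays of parts 5 to 7 were above all 12 of parts 1 to 4, and within parts 5 to 7 the ranges overlapped.

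The mean log2(signal + 16) of Cer1 was 4.51 ± 0.61, 4.08 ± 0.04, 4.47 ± 0.16 and 4.89 ± 0.75 (SD, n = 3) in parts 1 to 4, and 8.47 ± 0.74, 9.36 ± 0.52 and 8.61 ± 0.95 in parts 5 to 7. Its order was part 6, 7, 5, 4, 1, 3 and 2, with no overlap between parts 5 and 4 or between parts 3 and 2, the latter at signals below the median of the table. The mean of part 7 was 8.09 ± 0.42 (SD, n = 2), below part 5, without its replicate 2. Cer1 was called by the F test (adjusted p = 1.52e-08) and for a rising slope of 0.96 ± 0.12 (SE) log2 units per part (adjusted p = 1.43e-06). Between neighbours it rose from part 4 to part 5 by 3.57 ± 0.45 (SE), or 11.9-fold (adjusted p = 3.18e-04), among 39 genes called at that step, of which the rising ones were 0.264% of those tested. Part 7 was 4.10 ± 0.45 (SE) log2 units above part 1, or 17.2-fold (adjusted p = 2.36e-06), where 13.4% of genes were called and 6.1% were called upwards. Without replicate 2 of part 7 that difference was 3.58 ± 0.43 (SE), or 11.9-fold (adjusted p = 1.56e-05), and without all arrays of replicate 2 it was 3.39 (adjusted p = 0.00244). These 4 calls of Cer1 held under every alternative run, with a highest adjusted p of 0.0230.

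A second probe set for Cer1, 1450257_at, gave lower signals with the same shape. It did not exceed 8.21 in any array of parts 1 to 4, and read 33.2, 22.9 and 18.6 in part 5, 55.6, 35.4 and 31.9 in part 6, and 27.3, 42.0 and 25.1 in part 7. In a fit over 22064 probe sets its slope was 0.31 ± 0.04 (SE) log2 units per part (adjusted p = 2.84e-06) and its rise from part 4 to part 5 was 1.05 ± 0.19 (SE) (adjusted p = 0.0197). The size of the Cer1 change therefore differed between its probe sets while its direction and place did not. Mesp1, Mesp2 and Ripply2 had 1 probe set each, so no such check was possible for them.

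**Figure D2:**
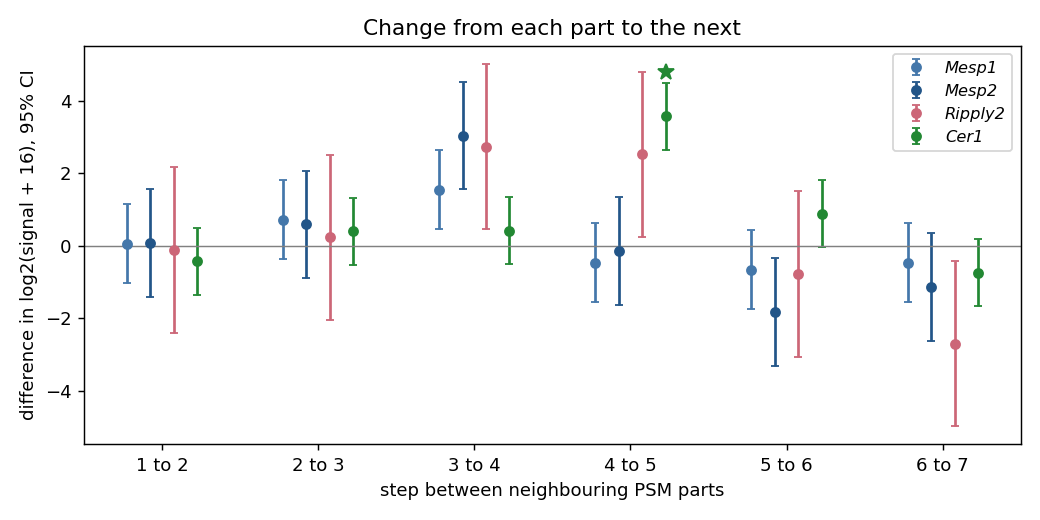
Difference in log2(MAS5 signal + 16) between each pair of neighbouring parts for the 4 genes, with 95% confidence intervals from the fit over all 21 arrays, not adjusted for the number of genes. A star marks an adjusted p under 0.05; the star stands at the step from part 4 to part 5 of Cer1 (3.57), and the intervals of Ripply2 are the widest.

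Set against their own highest array, Mesp1 and Mesp2 shared a stretch of the parts, and Ripply2 and Cer1 reached their highest arrays at higher part numbers. Replicate 3 of part 4 was the highest array for Mesp1 and Mesp2, and there Ripply2 was at 13.3% and Cer1 at 0.531% of their own highest signals. Replicate 1 of part 5 was the highest for Ripply2, with Mesp2 at 9.57% and Cer1 at 66.8%. In replicate 2 of part 7 Cer1 was at 84.6% and Ripply2 at 42.4% of their highest, while in replicates 1 and 3 of part 7 Ripply2 was at 0.623% and 0.324%. These percentages compare a gene with itself only, since signals of different probe sets have no common scale.

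**Figure D3:**
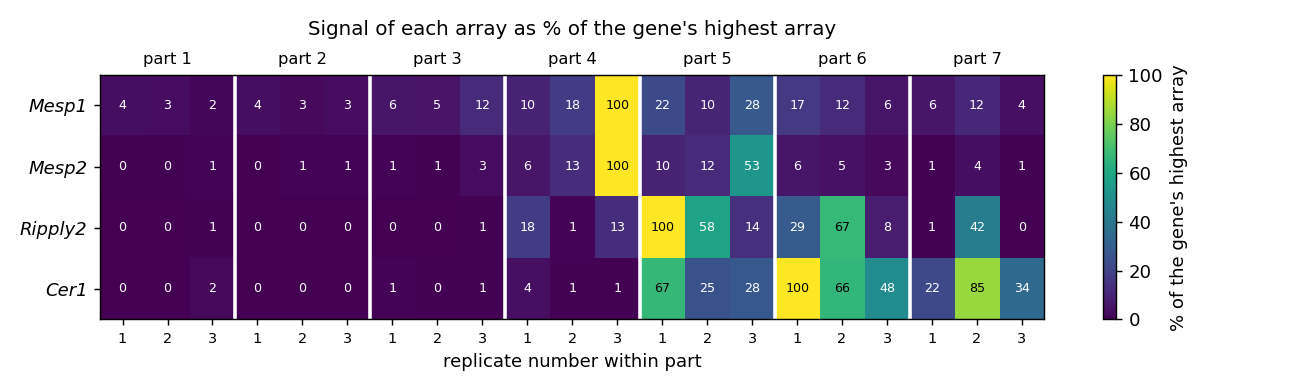
Signal of each gene in every array as a percentage of that gene's own highest array. Columns are the 21 arrays ordered by part and replicate; the highest arrays lie in part 4 for Mesp1 and Mesp2, in part 5 for Ripply2 and in part 6 for Cer1.

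The place of the highest array was read within each replicate number, as a description. For Mesp1 and also for Mesp2 it was part 5 in replicate 1 and part 4 in replicates 2 and 3. For Ripply2 it was part 5, part 6 and part 5, and for Cer1 part 6, part 7 and part 6. In all 3 replicate numbers, then, the highest part of Ripply2 was at or after that of Mesp2, and the highest part of Cer1 was after that of Ripply2. The signal-weighted mean part, which uses all 7 arrays of a replicate number, was 4.85, 4.82 and 4.33 for Mesp2, 5.07, 5.88 and 4.73 for Ripply2 and 5.71, 6.31 and 5.92 for Cer1. It followed the same order in each replicate number, and for Mesp1 it was 4.73, 4.78 and 4.18, below Mesp2 each time. No further background was subtracted from the MAS5 signals, and a floor left in all parts draws this value towards part 4. In parts 1 and 2 of replicate 1, Mesp1 had signals of 18.4 and 17.3 beside a highest signal of 109. Mesp2 had 6.41 and 4.60 there, beside 138. The weighted means therefore cannot order Mesp1 against Mesp2. Whether arrays of 1 replicate number come from the same embryo is not given in the labels.

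**Figure D4:**
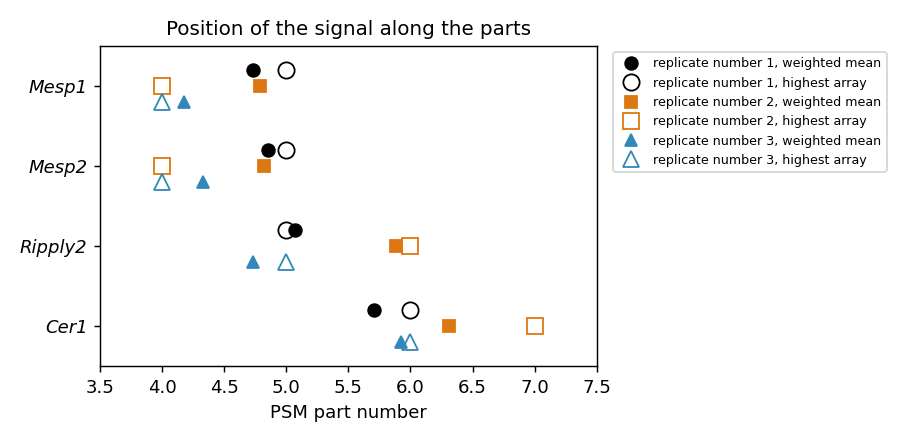
Place of each gene's signal along the part numbers, with no further background subtracted from the MAS5 signals. Filled points are the signal-weighted mean part and open points the part of the highest array, 1 of each for each replicate number; the weighted mean of Mesp1 lies between 4.18 and 4.78, Mesp2 between 4.33 and 4.85, Ripply2 between 4.73 and 5.88 and Cer1 between 5.71 and 6.31.

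Replicate arrays of a part differed more for these genes than for most. The pooled SD within parts was 0.73 log2 units for Mesp1, 1.01 for Mesp2, 1.55 for Ripply2 and 0.62 for Cer1, against a median of 0.24 over the 12141 genes. Ripply2 ranked 4th from the highest SD, Mesp2 36th, Mesp1 130th and Cer1 244th. The range of the part means was wide as well, at 5.49 log2 units for Ripply2 (rank 5), 5.28 for Cer1 (rank 9), 3.70 for Mesp2 (rank 48) and 2.31 for Mesp1 (rank 210), with a median of 0.44. Without replicate 3 of part 4 the SD was 0.47 for Mesp1 (rank 664) and 0.72 for Mesp2 (rank 124). Without replicate 2 of part 7 it was 1.11 for Ripply2 (rank 22) and 0.54 for Cer1 (rank 434).

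The deviations of Mesp1 and Mesp2 went together. In each of parts 4 to 7 the same replicate was highest for both (4 of 4 parts), and the correlation of their deviations from the part means over 21 arrays was 0.876. Ripply2 and Cer1 had the same highest replicate in 3 of 4 of these parts, and their deviations had a correlation of 0.696. Mesp2 and Ripply2 shared the highest replicate in 1 of 4 parts, with a correlation of deviations of 0.187. In part 5, for example, Mesp2 was highest in replicate 3 (756) and Ripply2 was lowest there (304). Without replicate 3 of part 4 the correlation of deviations of Mesp1 and Mesp2 was 0.721 over 20 arrays. Without replicate 2 of part 7 that of Ripply2 and Cer1 was 0.514, and that of Mesp2 and Ripply2 was -0.0606. These are descriptions, because the values of an array share 1 piece of tissue, 1 amplification and 1 scaling.

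The tested genes most like each member were taken by Pearson's correlation of log2(signal + 16) over the 21 arrays, again as a description. Mesp1 and Mesp2 were most like each other (0.936), and next to both stood Ajap1, an adherens junction associated gene, with 0.811 to Mesp1 and 0.857 to Mesp2. Gadd45g, a stress-response gene (0.781 and 0.825), and the homeobox gene Irx5 (0.784 and 0.795) followed for both, with Sf3b4, a splicing factor gene (0.779), for Mesp1 and Mid1ip1 (0.793) for Mesp2. Irx5 and Sf3b4 were not called by the F test (adjusted p = 0.168 and 0.379), and Irx5 did not exceed a signal of 41.3. Without replicate 3 of part 4 the correlation of Mesp1 was 0.917 with Sf3b4 and 0.904 with Mesp2, and that of Irx5 with Mesp1 was 0.717. For Ripply2 the nearest genes were Rflna (0.908), Lrrtm3 (0.896), Pitpnc1, Aldh1b1 and Elf1 (0.890 each), and all 5 had their highest mean in part 5 or 6. For Cer1 they were Myocd, a cofactor of serum response factor (0.984), the FGF receptor gene Fgfr2 (0.969), Stum (0.965), Shroom3, a regulator of apical constriction (0.965), and Prmt8 (0.962), all highest in part 6. The probe sets of Ajap1 and Rflna carry a suffix that marks possible cross-hybridisation.

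A list of Notch and clock genes held inputs to Mesp2 and also Notch target and feedback genes. Of its genes, 9 of 15 tested were called by the F test, beside 13.4% of all genes. In this list 4 had a rising and 4 a falling slope, beside 8.12% and 11.1% of all genes. The median slope of the list was 0.02 log2 units per part against -0.00 for all genes. For this and the following lists, rising and falling mean a called slope with part number. Tbx6, the T-box activator of Mesp2, fell with part number, from a mean level of 9.10 ± 0.17 (SD, n = 3) in part 1 and 9.03 ± 0.29 in part 4 to 7.87 ± 0.26 in part 5, 6.21 ± 0.23 in part 6 and 5.45 ± 0.52 in part 7 (slope adjusted p = 3.61e-07). The signals of Tbx6 were 495, 632 and 417 in part 4 and 73.2, 52.6 and 50.8 in part 6, and these ranges did not overlap. Dll3, a Notch ligand family member of this tissue, also fell, with its mean level going from 10.47 ± 0.13 in part 4 to 8.08 ± 0.74 in part 7. Heyl, a Notch target gene, rose to 7.26 ± 0.25 in part 6 from 4.76 ± 0.20 in part 1, and the receptor gene Notch2 rose from 8.99 ± 0.25 to 10.73 ± 0.31 in the same parts.

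Dll1, Nrarp and Epha4 were picked from these lists after their values were seen, for how single arrays lay. Dll1, the main Notch ligand of the presomitic mesoderm, had signals of 1333, 1110 and 2276 in part 4, highest in the replicate that was highest for Mesp1 and Mesp2. Nrarp, a Notch feedback gene, had signals of 278, 2058 and 281 in part 7, and the Eph receptor gene Epha4, a target of Mesp2, had 189, 804 and 154. In both, replicate 2 of part 7 stood apart in the way it did for Ripply2.

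**Figure D5:**
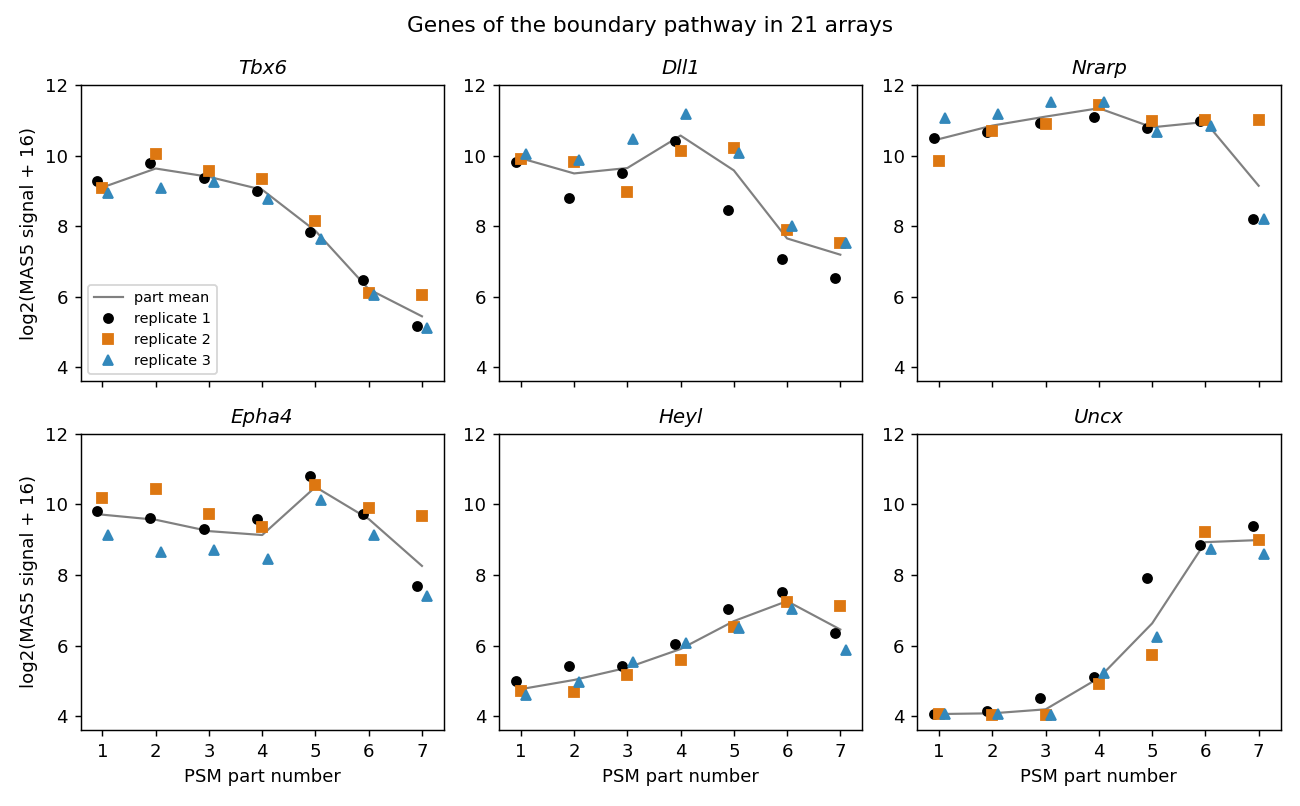
Level of Tbx6, Dll1, Nrarp, Epha4, Heyl and Uncx as log2(MAS5 signal + 16) against part number. Each point is 1 array, coloured by replicate number, and lines join part means; in part 7 replicate 2 lies apart for Nrarp (signal 2058 against 278 and 281) and Epha4 (804 against 189 and 154).

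In the list of Ripply genes, T-box partners and Groucho corepressors, 6 of 8 tested genes were called by the F test, Ripply2 included, beside 13.4% of all genes, with 4 rising and 2 falling slopes (8.12% and 11.1% of all genes) and a median slope of 0.17. The T-box genes Tbx22 and Tbx18 rose with part number, Tbx22 from 4.21 ± 0.21 (SD, n = 3) in part 1 to 6.61 ± 0.57 in part 7 and Tbx18 from 4.51 ± 0.66 to 8.01 ± 0.67. Tle1, a Groucho corepressor gene, rose from 6.26 ± 0.16 to 7.78 ± 0.29. Tbx6, also on this list, fell. Ripply1, the closest relative of Ripply2 in this tissue, was not analysed here.

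Segment boundary and polarity genes made up the list with the highest share of called genes among these 6 lists, 13 of 14 tested by the F test beside 13.4% of all genes, with 9 rising and 2 falling slopes (8.12% and 11.1% of all genes) and a median slope of 0.50. This list, like the others, was chosen with earlier results of these data known, so its share and rank are descriptions. The forkhead gene Foxc2 rose from a mean level of 6.14 ± 0.85 (SD, n = 3) in part 1 to 10.53 ± 0.20 in part 4 and 11.03 ± 0.19 in part 5. Fgf18 rose from 5.67 ± 0.66 in part 3 to 8.57 ± 0.61 in part 4 and 9.70 ± 0.34 in part 5. Uncx, which marks the posterior compartment of the somite, had a mean of 5.08 ± 0.17 in part 4, 6.63 ± 1.14 in part 5 and 8.99 ± 0.39 in part 7. Tcf15, a helix-loop-helix gene of somite epithelium, rose from 7.16 ± 0.30 in part 1 to 11.12 ± 0.16 in part 6. The gene of this list without an F call was Epha4 (adjusted p = 0.0836).

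Of the mesodermal helix-loop-helix genes, 5 of 9 tested were called by the F test, beside 13.4% of all genes, and this list includes Mesp1 and Mesp2 themselves. Beside Tcf15, the called genes were Twist1, which rose from 4.93 ± 0.27 (SD, n = 3) in part 1 to 7.95 ± 0.36 in part 7, and Msgn1, a gene of the early presomitic mesoderm, which fell from 5.77 ± 0.66 to 4.48 ± 0.48. The median slope of the list was 0.04.

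A further list held Nodal and BMP ligands, which Cer1 can bind, and also Lefty and Wnt genes, receptors and cofactors. Of its genes, 7 of 18 tested were called by the F test, beside 13.4% of all genes. In this list 4 had rising and 5 falling slopes (8.12% and 11.1% of all genes), and the median slope was -0.04. Bmp2 was called without a called slope (F adjusted p = 0.00138). Its signals were 191, 328 and 290 in part 4 and 20.7, 132 and 107 in part 5, so that all part 4 arrays were above all part 5 arrays, where Cer1 rose. Bmp7 was called as well, with means from 4.80 ± 0.20 in part 5 to 5.91 ± 0.05 in part 7 (SD, n = 3). Nodal, picked as a ligand of Cer1 and not for its rank, did not exceed a signal of 26.7 and was not called by the F test (adjusted p = 0.0666), although its slope of 0.11 ± 0.03 (SE) per part was (adjusted p = 0.00283). Wnt3a fell from 7.74 ± 0.37 in part 1 to 4.49 ± 0.29 in part 4, and Smad3, which relays Nodal signals, rose from 8.98 ± 0.07 in part 1 to 10.54 ± 0.03 in part 6.

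Of the DAN family and other secreted BMP antagonists, 5 of 7 tested genes were called by the F test, Cer1 included, beside 13.4% of all genes, with 4 rising and 2 falling slopes (8.12% and 11.1% of all genes) and a median slope of 0.15. Fst, which encodes follistatin, rose from 5.03 ± 0.07 (SD, n = 3) in part 1 to 8.04 ± 1.06 in part 7, and Fstl1 rose from 10.01 ± 0.20 to 10.98 ± 0.25. Bmper fell from 7.78 ± 0.53 in part 1 to 4.22 ± 0.12 in part 5.

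Other tissues in which these genes are known could be present in a dissected piece. For Cer1 this is the endoderm, and the summed signal of 11 gut endoderm markers was 126 to 1170 in the arrays of parts 1 to 3 and 60.9 to 385 in those of parts 4 to 7. Of the 9 markers tested, 0 had a rising and 3 a falling slope, beside 8.12% and 11.1% of all genes. For the anterior visceral endoderm the sum over 7 markers was 103 to 611 in parts 1 to 3 and 31.2 to 104 in parts 4 to 7, with Otx2 at most 2.35 and Gsc at most 7.98 in any array. In the same list Dkk1 reached 548, and at most 24.1 in parts 4 to 7, and Lhx1 reached 58.1, with its highest mean in part 4. In parts 5 to 7, where Cer1 was high, the highest sums were 385 and 59.5. Single genes weigh on the gut endoderm sum, with Ttr at up to 717 (up to 104 in parts 4 to 7) and Sox17 at up to 206. The part of endoderm in the Cer1 values was not tested. Mesp1 is also active in early heart precursors. The sum over 12 cardiac and lateral plate markers was 232 to 855 in parts 1 to 3 and 405 to 899 in parts 4 to 7. Of 8 tested genes, 1 had a rising and 0 a falling slope, beside 8.12% and 11.1% of all genes. The rising gene was Actc1 (up to 521, slope adjusted p = 0.0354). Isl1 reached 251 with its highest mean in part 4, as for Mesp1, and was not called by the F test (adjusted p = 0.0944), and Osr1 reached 91.5, with its highest mean in part 3, and was called (0.00793). The other 9 genes, Nkx2-5 among them (up to 28.2), did not exceed 56.6. The part of these genes in the Mesp1 values was not tested. The presomitic mesoderm and somite markers summed to 3200 to 5941 in parts 1 to 3 and 7842 to 11936 in parts 4 to 7, with 7 rising and 5 falling slopes among 12 genes (8.12% and 11.1% of all genes). That sum was 7842 to 10113 in part 4, where Cer1 was low, and 8786 to 11936 in part 7, where the means of Mesp1 and Mesp2 were lower than in part 5, and its part in the results was not tested. In pieces of tissue, fewer cells of a type and less RNA per cell cannot be told apart.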

How the data were processed

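Total RNA of 21 pieces was extracted with Trizol and made into biotin-labelled cRNA with a double amplification, per the labels' protocols, which can distort levels and shorten transcripts. The authors deposited linear signal intensity per probe set, made with MAS5 per the submitters' processing notes (version and scaling are not given in these sources). Scaling makes array means alike, which hides any shift common to most genes, and low MAS5 signals are noisy. The number of arrays limits the precision. Detection calls were not used here.

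Arrays were assigned to parts by title. Of 45101 probe sets, 34945 had 1 gene symbol in the platform annotation, 9160 none, 932 several and 64 were controls; 34741 of the 34945 were matched to RefSeq (GRCm38.p6). The probe set with the highest mean log2(signal + 16) stood for each of 18193 genes. Genes at or above 13.3, the median of the table, in at least 3 arrays were kept (12141). limma 3.58.1 in R 4.3.3 (lmFit, eBayes with trend, no covariate) gave the F test, slope, and part contrasts, with Benjamini-Hochberg adjustment over all genes tested and a threshold of 0.05. Two-sided p-values were used, and the fits were tested on simulated data. Named are the 4 genes, the 5 genes most like each, and of each list up to 4 genes by the F test. Nodal, Dll1, Nrarp, Epha4 and the single tissue markers were picked outside this rule. The members and lists were chosen with earlier results of these data known. Alternatives were pseudocounts of 1 and 64, other filters, normalizations, probe set rules, variance settings and sample sets.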

Additional observations from a re-analysis of the deposited data

How the results depend on the processing

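Over other settings, 384 of 388 values of the 4 genes kept their direction and their side of the threshold. With arrays left out 842 of 864 did, and the losses and gains of calls are given with each gene or below. With a pseudocount of 64 the F call of Mesp1 was lost (F = 3.98, adjusted p = 0.0642). With array weights the part 4 against part 3 difference of Mesp2 was 2.70 and called (adjusted p = 0.0496), and its part 5 against part 4 difference turned to 0.41. Counts of genes called moved by more than 1.5 times as follows. A pseudocount of 1 gave 55 genes for part 2 against part 1 and 37 for part 6 against part 5, a pseudocount of 64 gave 10 for part 4 against part 3, a filter at the 75th percentile gave 61 for part 2 against part 1, and quantile normalization gave 4 for part 3 against part 2. Array weights gave 188, 12, 58, 68 and 101 for the steps from part 1 up to part 6. Using only the 2 parts compared gave 1082 for part 7 against part 1 and 0, 0, 1, 15 and 26 for those steps, with fewer arrays behind the spread. The cause of the other moves was not tested.

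Same-numbered arrays did not meet the rule for pairing (55 of 63 pairs had a correlation of deviations over 0.1, the lowest 0.0341), though 18 of 21 arrays correlated best with their own number. The median correlation was 0.300 for same-numbered pairs. For the 126 pairs of different numbers it was -0.231, and 29 of them were over 0.1. Deviations within a part offset each other, so these medians are not independent. The main fit has no replicate term, so what same-numbered arrays share stays in its spread. With a replicate block, the F test called 3026 genes, part 7 against part 1 called 2850, and the steps from part 1 up to part 6 called 486, 18, 34, 105 and 142; the part 4 against part 3 difference of Mesp2, 3.04, was then called (adjusted p = 0.0340), and no other call of the 4 genes changed.

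With a replicate number or a single array left out, the F test called 608 to 1721 genes, the slope 1375 to 2323, part 7 against part 1 701 to 1706, and the 6 steps in order 14 to 191, 0 to 7, 0 to 10, 5 to 57, 2 to 74 and 0 to 62. The count of 39 for part 5 against part 4 was 25 and 13 without part 4 replicates 1 and 2, and 12 and 23 without part 5 replicates 1 and 3. Uncalled differences that changed sign ranged, for part 2 against part 1, from -0.11 to 0.17 for Mesp1, -0.058 to 0.22 for Mesp2 and -0.26 to 0.077 for Ripply2. For part 4 against part 3 Cer1 ranged from -0.011 to 0.68. For part 5 against part 4 Mesp1 ranged from -1.18 to 0.41 and Mesp2 from -0.96 to 0.96, and for part 6 against part 5 Ripply2 ranged from -1.57 to 0.013. The slope of Mesp1 was also called without replicate 3 (0.23, adjusted p = 0.0159). Signal over background limits Mesp2, Ripply2 and Cer1, which were below the median of the table in 9, 8 and 10 arrays.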
